A study of Caenorhabditis elegans with 12 samples.

Results

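The nuclear hormone receptor genes of Caenorhabditis elegans were followed in L1 larvae of 2 strains with and without UV-B. Members were the protein-coding genes of the deposited table whose name is nhr- followed by a number. The receptors nhr-23 and nhr-25, which drive moulting and epidermal development, were set aside and do not count as members. This rule used names only and gave 267 genes of the 19664 protein-coding genes in the table. N2 is the laboratory wild type. The lin-52(n771) III strain carries, in every cell, a mutant lin-52, which encodes a subunit of the MuvB core of the DREAM repressor complex. Synchronized larvae of either strain ate E. coli for 3 h, received UV-B at 60 mJ/cm2 or a mock treatment, and were harvested 6 h afterwards. This made 4 groups, mock and UV for N2 and the same for lin-52, each with 3 libraries of ribosomal-RNA-depleted total RNA from whole larvae. Larvae were plated in 4 replicates for each strain and condition, and 3 of each were chosen for sequencing by RNA quality. Whether the plates held separately grown populations was not given, so the p-values measure the spread between these libraries.

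Nuclear hormone receptors are transcription factors with a zinc-finger domain that binds DNA and a second domain that can hold a small lipophilic ligand, such as a steroid, a fatty acid or a toxin. Ligand binding changes which coactivators or corepressors the receptor recruits, so that a metabolic or environmental signal is turned directly into transcription. Caenorhabditis elegans has far more of these genes than insects or vertebrates, and most of the additional copies descend from a receptor like vertebrate HNF4. Many of the worm receptors act in the intestine, where they tune fat metabolism and detoxification to the food, and a smaller conserved set acts in moulting, neurons and the gonad.

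Levels are FPKM (fragments per kilobase of transcript, relative to all mapped fragments) after scaling of the libraries, given per library or as mean ± SD (n = 3 libraries). Fold changes were computed from log2(FPKM + 0.5), so that they understate what low genes did, and are followed by the standard error. Adjusted p-values come from 1 limma model over 12926 tested genes, and a change was called at an adjusted p below 0.05. Deposited FPKM summed to 1243647 to 1398489 per library, and low values placed the depths between 0.938 and 1.282 times that of N2 mock replicate 1. A single nominal number of read pairs was stated for all libraries, and read totals of each were not given in the sources used here. Marker genes of intestine, body wall muscle, neurons and epidermis were detected in every library, apart from act-5 of the intestine, listed at 0 in all of them. The 6 vitellogenin genes, which mark adult carry-over, summed to 0.0969 to 0.318 FPKM. Summed germline markers stood at 29.3 to 30.7 FPKM in N2 mock and 106 to 114.1 in lin-52 mock, and at 34.5 to 36.2 in N2 UV and 124 to 135 in lin-52 UV. Singly, glh-1 stood at 12.2 ± 0.362 FPKM in N2 mock and 48.9 ± 3.47 in lin-52 mock, and pgl-1 at 13.1 ± 0.279 and 17.2 ± 0.343. nos-2 was too low to be tested, at 0.326 ± 0.104 and 0.198 ± 0.0352. More germline cells and germline genes transcribed in other cells cannot be told apart in whole larvae.

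Most receptor genes were transcribed at this stage, at modest levels. Of the 267 members 195 reached a mean of 1 FPKM and were tested, which is 73% against 65.7% of all protein-coding genes. Of the tested members 39 had a mean of 20 FPKM or more, 100 lay between 5 and 20 and 56 between 1 and 5. Their median was 8.6 FPKM, against 16.5 over all tested genes. The members summed to 2473 to 2563 FPKM in the N2 mock libraries and to 2501 to 2618 in the lin-52 mock libraries. After UV the sum was 3210 to 3252 in N2 and 2914 to 3043 in lin-52, above the mock libraries of either strain.

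The 72 members that were not tested included 7 listed at 0 in all libraries, 25 with a mean under 0.1 FPKM, 23 from 0.1 to under 0.5 and 17 from 0.5 to under 1. Of these 72, 8 reached 1 FPKM as the mean of at least 1 group. Among them nhr-239 read 2.22, 2.1 and 1.59 FPKM in N2 mock and 0.286, 0.238 and 0.204 in N2 UV. In the other direction nhr-221 read 0.288, 0.0588 and 0.263 FPKM in N2 mock and 1.41, 1.47 and 1.45 in N2 UV. Both were left out of the counts that follow, and with no filter on low values 260 members entered the model. Of the tested members 13 had a group mean under 1 FPKM, so that they passed the filter through their higher groups.

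The most abundant member was nhr-97 (WBGene00003687), at 219 ± 5.24 FPKM in N2 mock, 216 ± 7.56 in lin-52 mock, 211 ± 4.31 in N2 UV and 202.7 ± 1.78 in lin-52 UV. It was followed by nhr-105, nhr-68, nhr-31, nhr-49, nhr-88, nhr-114, nhr-19, nhr-46 and nhr-85. These differed in what UV did to them. The metabolic regulator nhr-68 (59.9 ± 4.05 FPKM in N2 mock, 62.2 ± 2.09 in N2 UV) and nhr-46 (50.04 ± 5.19 and 48.2 ± 3.15) were not called in either strain. nhr-31, which acts in growth of the excretory canal, went from 56.9 ± 1.11 to 63.9 ± 0.191 FPKM in N2, a log2 change of 0.17 ± 0.05 (adjusted p = 0.00642). nhr-85, a relative of insect E75 and vertebrate Rev-Erb, was called with a larger change, described below.

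The members are unevenly placed in the genome. In the WBcel235 annotation of Ensembl 115, chromosome V holds 167 of the 267, which is 62.5%, while it holds 25.1% of all protein-coding genes. Chromosome IV holds 33, chromosomes I and X 22 each, chromosome II 15 and chromosome III 8. Joined wherever neighbouring members lay within 50 kb of each other, 190 members fell into 43 runs of 2 or more, the largest with 19. The runs were defined after the values were seen. Close copies share sequence, and how reads that match several copies were assigned was not given in the sources used here, so a member's level may hold some of a near copy's reads. The span of 49 members overlaps another protein-coding gene, and whether counting used the strand was not given. Among the members described below, nhr-85 shares 2261 bases with npr-14 on the opposite strand, nhr-114 shares 2807 with Y45G5AM.9 and nhr-232 shares 972 with sri-18.

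After UV the receptor genes of N2 moved mostly upwards. Of the 195 tested members 143 were called between N2 UV and N2 mock and 52 were not. Of the 143, 32 were lower after UV and all others higher. That is 56.9% of the tested members higher and 16.4% lower, where 35.8% of all tested genes were higher and 37.7% lower. The median log2 change was 0.34 for the members and -0.01 for all tested genes. A change of 2-fold or more was reached by 32 of the members that rose and by 17 of those that fell. Of all 12926 tested genes 1429 rose and 1046 fell by as much. In lin-52 larvae 104 members were higher and 33 lower in lin-52 UV than in lin-52 mock, 53.3% and 16.9%, against 32.2% higher and 34.4% lower over all tested genes, and the median was 0.26 for the members and -0.01 for all.

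The surplus of increases sat among the better expressed members. Between 5 and 20 FPKM 65.0% of the members rose and 14% fell in N2, where 37.1% and 35.2% of all tested genes at that level did. At 20 FPKM and more 71.8% rose and 15.4% fell, against 37.5% and 45.8% of all genes at that level. Between 1 and 5 FPKM 32.1% rose and 21.4% fell, near the 30.7% and 25.8% of all genes. No test was run on these shares.

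The strains responded alike in direction. The effect of UV in N2 and its effect in lin-52 rest on different libraries. 100 members rose in both strains and 27 fell in both, 0 moved in opposite directions and 42 were called in neither. The 100 are 90.1% of the members that rose in N2 and 96.2% of those that rose in lin-52, and the 27 are 84.4% and 81.8% of those that fell. For all tested genes, 81.2% of those that rose in N2 rose in lin-52 as well, and 83.2% of those that fell did. Called in N2 alone were 11 increases, nhr-49 and nhr-66 among them, and 5 decreases, those of nhr-1, nhr-57, nhr-167, nhr-198 and nhr-216. Called in lin-52 alone were 4 increases, those of nhr-21, nhr-61, nhr-158 and nhr-263, and 6 decreases. A call in 1 strain alone does not show that the strains differ, which is tested further on.

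**Figure D1:**
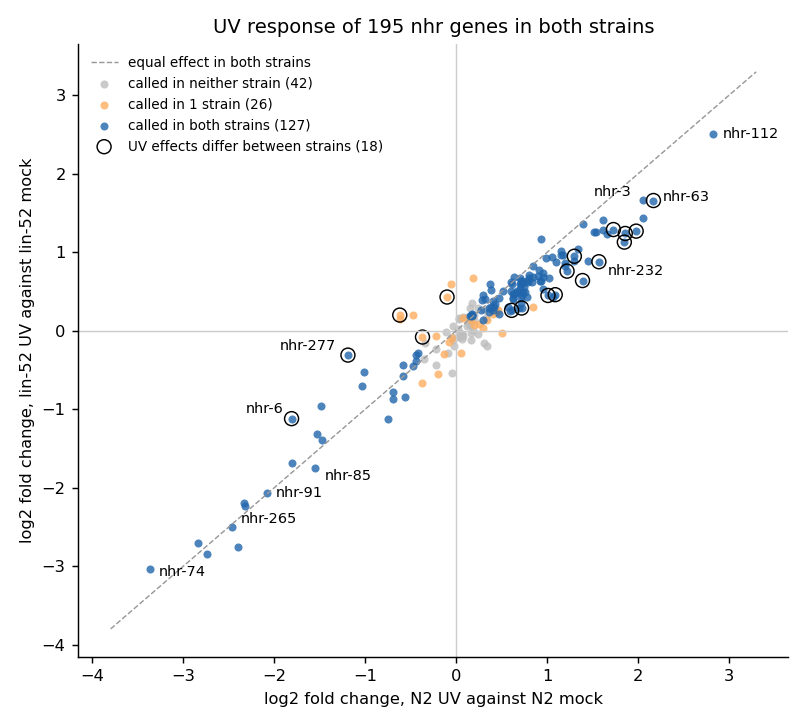
Log2 fold change after UV of the 195 tested nhr genes, in N2 on the horizontal axis and in lin-52 on the vertical axis. Colours mark genes called in both strains (127), in 1 strain (26) and in neither (42), and circles mark the 18 genes whose UV effect differed between the strains. The points lie along the diagonal, from nhr-74 at -3.37 in N2 and -3.03 in lin-52 to nhr-112 at 2.83 and 2.51.

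The member with the largest increase was nhr-112 (WBGene00003702, chromosome V, 16722061 to 16723844). It read 3.83, 5.24 and 5.28 FPKM in N2 mock and 35.3, 35.4 and 39.4 in N2 UV. In lin-52 it read 5.18, 5.05 and 4.61 FPKM in mock and 34.0, 28.1 and 29.5 after UV. The mock libraries of both strains were alike and all UV libraries stood far above them. The log2 change was 2.83 ± 0.11 in N2 (7.09-fold, adjusted p = 1.08e-09) and 2.51 ± 0.11 in lin-52 (5.68-fold, adjusted p = 4.6e-09).

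The next increases in N2 were those of nhr-63, nhr-3, nhr-206, nhr-231, nhr-154, nhr-54 and nhr-203. nhr-63 (chromosome V, 16002588 to 16004735) read 8.11, 6.50 and 6.48 FPKM in N2 mock and 30.8, 35.5 and 33.6 in N2 UV, and in lin-52 6.46, 7.75 and 6.79 in mock and 24.7, 22.5 and 22.2 after UV. The UV libraries of each strain lay above all mock libraries, and those of lin-52 lay below those of N2. nhr-3 (chromosome X, 14558504 to 14561432) read 8.55, 9.37 and 9.83 FPKM in N2 mock and 37.3, 42.3 and 41 in N2 UV, a log2 change of 2.06 ± 0.10 (adjusted p = 5.51e-09), and its change in lin-52 was 1.67 ± 0.10 (adjusted p = 5.38e-08). nhr-206 rose by 2.05 ± 0.20 in N2 and 1.44 ± 0.20 in lin-52, and nhr-54, a low gene, from 1.26 ± 0.274 to 5.79 ± 0.530 FPKM in N2. nhr-84, at 17.7 ± 0.909 FPKM in N2 mock, reached 55.3 ± 1.04 in N2 UV and 41.4 ± 5.43 in lin-52 UV, and was thereby one of the more abundant receptors after UV. nhr-207 stood at 0.355 ± 0.203 FPKM in N2 mock and 2.16 ± 0.165 in N2 UV, so that it passed the filter through its UV libraries.

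**Figure D2:**
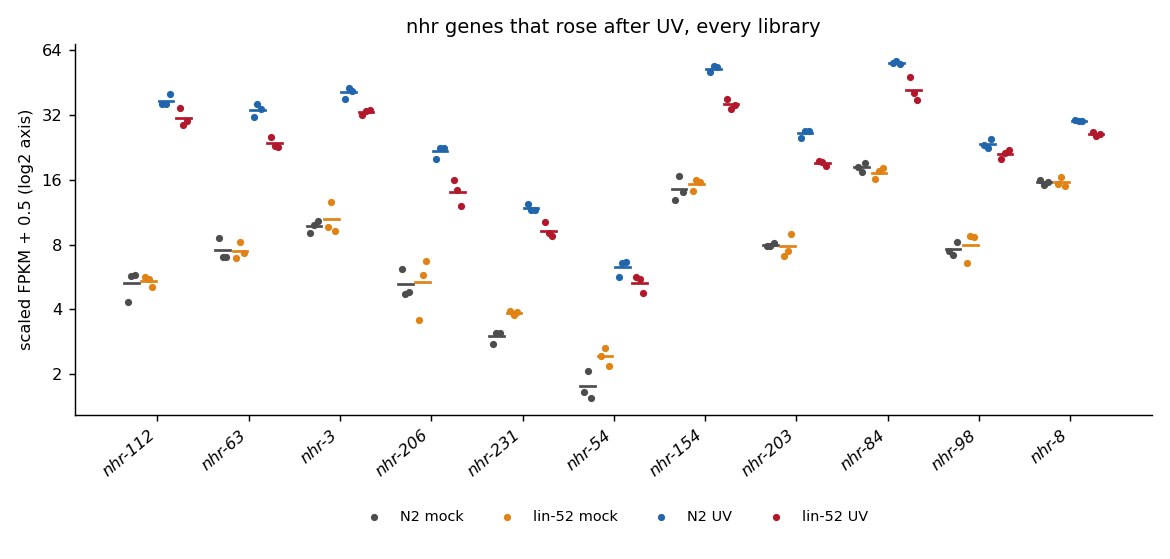
Scaled FPKM plus 0.5, on a log2 axis, of 11 nhr genes that rose after UV, with a point for each library and a bar at the mean of each group of 3 libraries. For each gene the N2 UV libraries lie above both mock groups. nhr-112 goes from 4.78 ± 0.825 to 36.7 ± 2.34 FPKM in N2, and the lin-52 UV mean lies below the N2 UV mean for each gene shown.

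The 7 largest decreases in N2 were all on chromosome I, 6 of them in 1 place. Of these 7, nhr-74, nhr-73, nhr-259, nhr-244 and nhr-265 had N2 UV means under 1 FPKM, so that they passed the filter through their mock libraries. Between 11429014 and 11480071 lie 6 members in a row, nhr-74, nhr-73, nhr-259, nhr-244, nhr-113 and nhr-245, and each of the 6 fell in both strains. nhr-74 read 9.60, 10.4 and 8.77 FPKM in N2 mock and 0.676, 0.347 and 0.425 in N2 UV. In lin-52 it read 13.4, 11.3 and 13.7 FPKM in mock and 1.07, 0.834 and 1.53 after UV. No UV library came near a mock library, and the log2 changes were -3.37 ± 0.17 in N2 (adjusted p = 6.28e-09) and -3.03 ± 0.17 in lin-52 (adjusted p = 2.57e-08).

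nhr-73 stood at 6.90 ± 0.203 FPKM in N2 mock and 0.979 ± 0.0957 in N2 UV, and nhr-245 at 8.82 ± 0.0586 and 1.35 ± 0.0742. For nhr-113 the means were 9.67 ± 1.28 and 1.02 ± 0.104 FPKM, and for nhr-259 7.19 ± 0.961 and 0.947 ± 0.0913. On the log2 scale these 4 genes fell by 2.32, 2.33, 2.74 and 2.40 in N2, in the order given. nhr-244 read 4.12, 6.07 and 5.17 FPKM in N2 mock and 0.627, 0.334 and 0 in N2 UV. nhr-74 and nhr-73 are among the receptors described in the epidermal seam cells, and no role is given here for the rest of the run. The median over the 6 was -2.57 in N2 and -2.73 in lin-52.

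Further along the same chromosome nhr-265 (12251906 to 12253636) read 1.90, 2.61 and 2.36 FPKM in N2 mock and was listed at 0 in each N2 UV library. In lin-52 it read 3.10, 1.94 and 2.43 FPKM in mock, and after UV it was listed at 0 in 2 libraries and at 0.0735 in the other. nhr-85 (WBGene00003675, chromosome I, 13055201 to 13062122) read 64.4, 70.1 and 64.8 FPKM in N2 mock and 22.1, 22.3 and 22.4 in N2 UV. In lin-52 it read 79.9, 60.9 and 75.6 FPKM in mock and 20.5, 20.5 and 22.1 after UV. It was among the 10 most abundant receptors over all libraries, and it fell by 1.55 ± 0.08 on the log2 scale in N2 (adjusted p = 1.07e-08) and by 1.75 ± 0.08 in lin-52 (adjusted p = 7.25e-09).

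**Figure D3:**
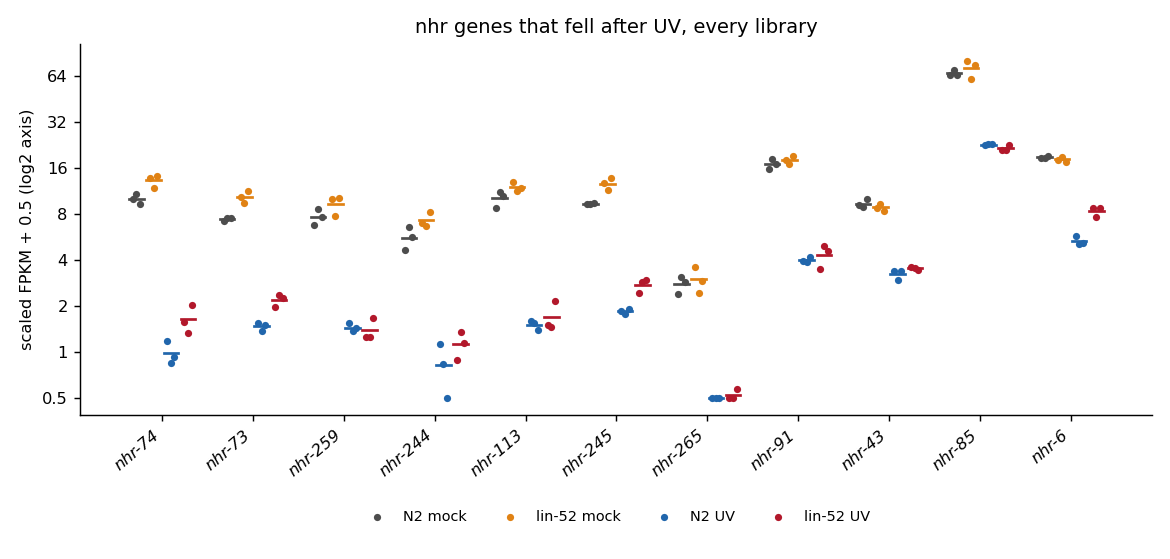
Scaled FPKM plus 0.5, on a log2 axis, of 11 nhr genes that fell after UV, with a point for each library and a bar at the mean of each group of 3 libraries. The first 6 genes are the run on chromosome I. The UV libraries lie below the mock libraries for each gene, from 66.4 ± 3.19 to 22.3 ± 0.139 FPKM for nhr-85 in N2, and the points at 0.5 are libraries listed at 0.

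The fall of nhr-85 and of the chromosome I run went together with that of genes of the moulting cycle. The summed level of 6 moulting genes (nhr-23, mlt-10, mlt-11, lin-42, qua-1 and noah-1) was 210 to 267 FPKM in N2 mock and 220 to 313 in lin-52 mock, and 9.72 to 10.9 in N2 UV and 10.2 to 16.8 in lin-52 UV, and all 6 were called lower in both strains. The part of this in the members' changes was not tested. Summed intestinal markers were 4410 to 4843 FPKM over all 12 libraries, a sum carried mostly by the protease gene asp-1 (3456 ± 136.8 FPKM in N2 mock, 3155 ± 129.5 in N2 UV). Singly, 4 of 7 tested intestinal markers rose and 3 fell in N2, and 4 rose and 2 fell in lin-52. Among those that rose were the intestinal transcription factors elt-2, from 12.4 ± 0.860 to 21.3 ± 0.430 FPKM in N2 (0.76 ± 0.07), and elt-7, from 10.8 ± 0.569 to 20.6 ± 1.96 (0.90 ± 0.09), in the same direction as most members. Their part in the members' increases was not tested. Summed markers of hypodermis and seam were 164 to 190 FPKM in N2 mock and 117 to 120 in N2 UV. They were 168 to 208 FPKM in lin-52 mock and 114.4 to 122.3 in lin-52 UV. The fall of this sum was carried mostly by dpy-7, at 60.7 ± 11.96 FPKM in N2 mock and 0.497 ± 0.268 in N2 UV. In lin-52 dpy-7 stood at 74.4 ± 17.9 FPKM in mock and 1.06 ± 0.754 after UV. Singly, 2 of 5 tested markers were higher (nhr-25 and grh-1) and 2 lower (dpy-7 and lin-26) in each strain. Summed body wall muscle markers were 1594 to 1678 FPKM in N2 mock and 991 to 1092 in N2 UV, 1396 to 1516 in lin-52 mock and 1085 to 1168 in lin-52 UV. Singly, 5 of 6 muscle markers were lower after UV in each strain, and hlh-1 was higher in lin-52 (0.26 ± 0.07). Of the neuronal markers 5 of 6 were lower after UV in each strain. In RNA of whole larvae fewer cells of a type and less RNA per cell cannot be told apart.

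By chromosome, 71 of 123 tested members on V rose in N2 and 13 fell, 57.7% and 10.6%, where 41.8% of all tested genes on V rose and 31.5% fell. Outside V, 40 of 72 members rose and 19 fell, 55.6% and 26.4%, against 34.2% and 39.3% of all tested genes there. On chromosome I 4 of 12 tested members rose and 8 fell, 33.3% and 66.7%, where 32.8% of all tested genes on I rose and 39.9% fell. These 12 are out of 22 members on I, and several of the 8 passed the filter through their mock libraries. On X 9 of 17 rose and 5 fell, 52.9% and 29.4%, against 31.1% and 44.6% of all tested genes on X. Of the 43 runs 18 held at least 3 tested members. In N2, 9 of the 18 had increases and no decrease, 1 had decreases and no increase, and 8 had members called in both directions. The run with decreases and no increase was the one on chromosome I.

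In 4 of the 18 runs every tested member rose in N2. The longest of these, with 7 members, lies on chromosome V between 12092006 and 12109313 and holds nhr-206, nhr-208, nhr-207, nhr-209, nhr-154, nhr-153 and nhr-136. All 7 also rose in lin-52. nhr-154 in this run read 12.4, 16.1 and 13.6 FPKM in N2 mock and 49.8, 53.2 and 52.6 in N2 UV. A longer run of 19 members, from 2192485 to 2296977 on V, had 15 members that rose and 0 that fell in N2, and 15 and 1 in lin-52. The other run of 19, from 392628 to 541485 on V, had 12 increases and 1 decrease among 16 tested members in N2. The decrease was that of nhr-155, which read 1.87, 2.28 and 2.28 FPKM in N2 mock and 0.447, 0.319 and 0.616 in N2 UV. Beside these counts, 57.7% of all tested members on V rose and 10.6% fell in N2, and 41.8% and 31.5% of all tested genes on V. Whether the runs depart from the share of the members was not tested.

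**Figure D4:**
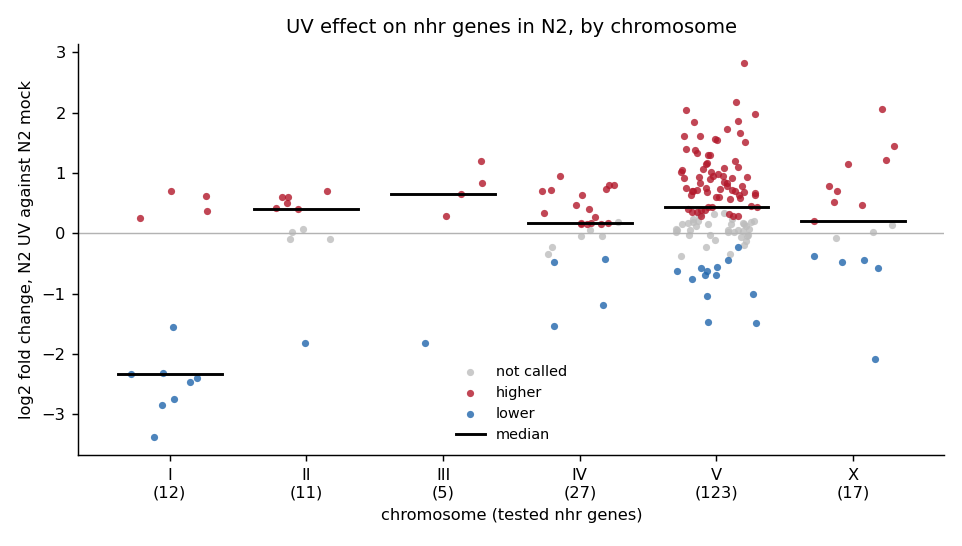
Log2 fold change of the tested nhr genes in N2 UV against N2 mock, by chromosome, with the number of genes in brackets, a point for each gene coloured by its call and a black bar at the median. The median is 0.43 on V and -2.33 on I, where 8 of 12 tested genes fell, several of which passed the filter through their mock libraries.

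The lists below are small, and no test was run on their shares. Beside them, 56.9% of all tested members rose and 16.4% fell in N2, and 53.3% and 16.9% in lin-52. Of all tested genes 35.8% rose and 37.7% fell in N2, and 32.2% and 34.4% in lin-52. Among the receptors conserved in other animals 7 of 9 were tested, and in each strain 4 rose and 3 fell after UV. The risers were nhr-8, a relative of vertebrate vitamin D and liver X receptors that acts in toxin resistance and cholesterol balance, nhr-41, a relative of insect DHR78, nhr-48, and nhr-67, the worm relative of tailless. nhr-8 read 15.4, 14.6 and 15.2 FPKM in N2 mock and 29.7, 29.6 and 29.5 in N2 UV, and in lin-52 14.7, 16 and 14.5 in mock and 26.1, 25.0 and 25.5 after UV. The 4 groups were tight and the UV groups did not overlap, and the increase was 0.95 ± 0.05 in N2 (adjusted p = 4.87e-09) and 0.74 ± 0.05 in lin-52 (adjusted p = 6.24e-08). nhr-67 went from 5.03 ± 0.387 to 8.63 ± 0.396 FPKM in N2 and nhr-41 from 13.5 ± 0.496 to 23.9 ± 1.16.

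The 3 that fell were nhr-85, nhr-91 and nhr-6. nhr-91 (chromosome X, 15309369 to 15314899), a relative of the vertebrate germ cell nuclear factor, read 15.3, 17.8 and 16.6 FPKM in N2 mock and 3.46, 3.40 and 3.71 in N2 UV. It fell by 2.08 ± 0.12 on the log2 scale in N2 and by 2.07 ± 0.12 in lin-52. nhr-6, the worm NR4A receptor, which acts in development of the spermatheca, read 18.0, 18.3 and 18.7 FPKM in N2 mock and 5.26, 4.62 and 4.70 in N2 UV. In lin-52 it read 17.6, 18.5 and 17.0 FPKM in mock and 8.20, 7.18 and 8.31 after UV, so that it fell in both strains and less far in lin-52. Of the 2 that were not tested, nhr-111 stayed under 1 FPKM in every group, and the values of nhr-239 are given above.

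All 11 receptors of lipid and nutrient metabolism were tested. In N2 8 rose (72.7%) and 1 fell after UV, and in lin-52 5 rose (45.5%) and 1 fell, where 56.9% and 53.3% of all tested members rose. nhr-49, an HNF4-like receptor that drives fatty acid oxidation and desaturation, read 55.4, 54.8 and 57.9 FPKM in N2 mock and 68.3, 66.6 and 65.7 in N2 UV. In lin-52 it read 57.6, 57.3 and 54.7 FPKM in mock and 65.4, 58.0 and 58.2 after UV, where 1 of 3 libraries came close to those of N2 UV. Its increase was 0.25 ± 0.05 in N2 (adjusted p = 0.000504), and the value in lin-52 was 0.09 ± 0.05 (adjusted p = 0.103). The difference of the UV effects was -0.16 ± 0.07 (adjusted p = 0.158). nhr-80, which works with nhr-49 on fatty acid desaturation, read 12.3, 11.4 and 11.9 FPKM in N2 mock and 20.8, 21.7 and 21.8 in N2 UV, and rose by 0.83 ± 0.05 in N2 and 0.62 ± 0.05 in lin-52.

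nhr-64 and nhr-69 rose in N2 by 0.70 ± 0.07 and 0.62 ± 0.06, and nhr-62, a receptor of the response to dietary restriction, by 0.37 ± 0.12. The member of this list that fell was nhr-114, which protects the germline and responds to the methionine cycle. It read 60.5, 65.4 and 66.4 FPKM in N2 mock and 38.1, 42.3 and 38.2 in N2 UV, and 74.7, 63.6 and 76.7 in lin-52 mock and 39.9, 37.9 and 38.6 in lin-52 UV. The fall was 0.69 ± 0.07 in N2 (change -0.69, adjusted p = 2.54e-06) and 0.87 ± 0.07 in lin-52 (change -0.87, adjusted p = 5.24e-07). nhr-10 and nhr-68, which switch on the propionate shunt, parted: nhr-10 went from 38.7 ± 2.37 to 47.5 ± 2.47 FPKM in N2 (0.29 ± 0.06, adjusted p = 0.000581), and nhr-68 was not called. nhr-13 (8.56 ± 0.527 and 8.67 ± 0.337 FPKM) was not called either.

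Of the 7 receptors listed for responses to stress, toxins and pathogens 6 rose in N2 and 6 in lin-52, where 56.9% and 53.3% of all tested members rose. nhr-8 is counted on the conserved list as well. Besides nhr-8 and nhr-112 the risers were nhr-14, which acts in iron uptake and immunity, nhr-45, nhr-86, a sensor of a bacterial metabolite, and nhr-176, a receptor for the drug thiabendazole. nhr-45 read 25.7, 27.2 and 28.3 FPKM in N2 mock and 48.7, 46.2 and 46.7 in N2 UV. nhr-86 read 23.6, 24.3 and 24.2 FPKM in N2 mock and 29.6, 29.8 and 28.7 in N2 UV, an increase of 0.28 ± 0.05, and its increase in lin-52 was 0.39 ± 0.05. nhr-57, known as a gene that hypoxia induces through HIF-1, went the other way in N2, from 20.5 ± 0.872 to 17.5 ± 0.643 FPKM (-0.22 ± 0.06, adjusted p = 0.00841). That call was lost with FPKM as deposited and with an equal sum per library.

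Of 11 listed receptors of epidermal seam, muscle and neuron development 5 were tested, and the rest were near 0. After UV 4 fell in N2 and 3 in lin-52, and 0 rose. Besides nhr-73 and nhr-74 they included nhr-40, which acts in muscle development and movement. nhr-40 read 44.6, 40.7 and 43.5 FPKM in N2 mock and 28.4, 28.4 and 28.8 in N2 UV, and 40.1, 47.9 and 41.8 in lin-52 mock and 31.5, 31.5 and 32.4 in lin-52 UV. The groups of each strain did not overlap. nhr-60 stayed near 3 FPKM, at 3.10 ± 0.772 in N2 mock and 2.99 ± 0.442 in N2 UV. A 12th entry of the list, nhr-75, matched no gene by that symbol.

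Genes that work with these receptors were followed through lists. Of 9 tested NHR-49 targets in fat metabolism 7 rose and 2 fell in N2, and 7 rose and 1 fell in lin-52. The 2 that fell in N2 were cpt-5 (-0.30 ± 0.11) and acdh-2, from 5.51 ± 1.63 to 1.16 ± 0.0309 FPKM (-1.82 ± 0.22). In lin-52 acdh-2 changed by -2.21 ± 0.22. fmo-2, a flavin-containing monooxygenase, stood at 2.90 ± 1.31 FPKM in N2 mock and 45.8 ± 3.19 in N2 UV, and the fatty acid desaturase fat-5 at 0.876 ± 0.157 and 9.31 ± 0.211. Beside the increase of nhr-49 from 56.0 ± 1.68 to 66.9 ± 1.32 FPKM, these were larger changes. All 5 genes of the propionate shunt fell in both strains. The largest decrease was that of acdh-1, from 352 ± 20.6 to 40.7 ± 1.71 FPKM in N2, while its regulator nhr-10 rose and nhr-68 was not called. All 6 listed genes of the methionine cycle fell in N2, and 5 of 6 in lin-52. sams-1, which makes S-adenosylmethionine, went from 706 ± 2.55 to 280 ± 5.87 FPKM in N2. Among the cofactors, the mediator subunit mdt-15, a partner of NHR-49, went from 87.1 ± 4.69 to 100.3 ± 1.76 FPKM in N2 (0.20 ± 0.05, adjusted p = 0.00432). cbp-1 rose in both strains, din-1, a corepressor of DAF-12, fell in N2 by 0.07 ± 0.03 (change -0.07), and daf-21 matched no gene by that symbol.

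Of 5 receptor genes not named nhr 3 were tested, and daf-12 and fax-1 were lower after UV in both strains. daf-12, the steroid receptor of the dauer decision, went from 17.1 ± 0.667 to 9.83 ± 0.409 FPKM in N2, a log2 change of -0.77 ± 0.06 (adjusted p = 1.66e-07), while its closest relative among the members, nhr-8, rose. The cytochrome daf-9, which makes the DAF-12 ligand, stayed near 1 FPKM in all groups and was not tested. A list of steroid synthesis, transport and receptor genes, which holds daf-12 again, had 5 tested genes, of which 1 rose and 2 fell in N2. The sterol transporter ncr-1 rose. The 2 that fell were daf-12 itself and daf-36 (-0.32 ± 0.13, adjusted p = 0.0495).

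Without UV the strains differed little in these genes. Between lin-52 mock and N2 mock 4 members were higher and 0 lower, 2.05% of those tested, where 3.57% of all tested genes were higher and 1.68% lower. The median log2 difference was 0.02 for the members and -0.02 for all tested genes. The 4 were nhr-15, nhr-73, nhr-245 and nhr-231. nhr-245 read 8.78, 8.79 and 8.89 FPKM in N2 mock and 12.2, 11 and 13.2 in lin-52 mock, a difference of 0.44 ± 0.10 (adjusted p = 0.0238). nhr-73 read 6.66, 6.99 and 7.03 FPKM in N2 mock and 9.81, 8.88 and 10.8 in lin-52 mock, a difference of 0.48 ± 0.11 (adjusted p = 0.0238). nhr-15 stood at 6.47 ± 0.665 and 9.45 ± 1.61 FPKM, and nhr-231 at 2.50 ± 0.209 and 3.36 ± 0.0910.

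The groups of these 4 genes did not overlap, which adds no support because the genes were picked by their calls. Each call was lost when single libraries were left out. Without any 1 of N2 mock replicates 1, 2 and 4 the count of members called was 0, 1 and 1. Without lin-52 mock replicate 2 it was 0, without replicate 3 it was 7 and without replicate 4 it was 1. Of the 6 genes in the chromosome I run the other 4 had a higher mean in lin-52 mock as well and were not called, as nhr-74 at 9.58 ± 0.80 FPKM in N2 mock and 12.8 ± 1.30 in lin-52 mock (0.40 ± 0.17, adjusted p = 0.238). The summed moulting markers were 313, 220 and 291 FPKM in lin-52 mock replicates 2, 3 and 4, and their part in these differences was not tested.

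After UV the strains differed in more of the receptors. Between lin-52 UV and N2 UV 14 members were higher and 47 lower, 7.18% and 24.1%, against 12.9% higher and 15.2% lower over all tested genes. The median log2 difference was -0.12 for the members and -0.02 for all genes. The differences were small: 5 of the 47 and 7 of the 14 reached 1.5-fold and 0 reached 2-fold. Of all tested genes 130 were higher and 57 lower by 2-fold or more. With FPKM as deposited 17 were higher and 27 lower, and the same FPKM scaled to an equal sum per library gave 11 and 15. Over all 12926 tested genes these settings called 2110 higher and 1448 lower, and 1275 and 886. Without lin-52 UV replicate 3 the counts were 12 and 26, beside 1253 and 1424 of all genes. Without replicate 4 they were 11 and 26, beside 1140 and 1401. Under each of these settings the share of lower members came nearer to that of all genes than the 24.1% against 15.2% above.

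Of the 47 lower genes 30 lie on chromosome V, 63.8%, which is near the 63.1% of tested members that lie there. On X 8 of 17 members were lower, 47.1%, where 15.4% of all tested genes on X were. For 42 of the 47 lin-52 UV replicate 2 was the highest library of its group, and without that library the comparison called 67 members in place of 61. Over all tested genes 1836 were higher and 2084 lower without it, in place of 1667 and 1960. How often it was the highest among all genes called lower was not counted. nhr-180 read 20.6, 20.8 and 21.8 FPKM in N2 UV and 15, 11.6 and 12.8 in lin-52 UV, a difference of -0.67 ± 0.08 (adjusted p = 0.000237). nhr-232 read 23.6, 24.8 and 23.6 FPKM in N2 UV and 18.0, 14.7 and 13.9 in lin-52 UV, a difference of -0.62 ± 0.09 (adjusted p = 0.000393). In both, lin-52 UV replicate 2 was the highest of its group and still below all N2 UV libraries. nhr-206 (-0.62 ± 0.20), nhr-99 (-0.59 ± 0.12), nhr-18 (-0.55 ± 0.10) and nhr-154 (-0.55 ± 0.08) were also lower, and the call of nhr-206 was lost under 10 of the alternatives. On X nhr-214 stood at 2.24 ± 0.309 FPKM in N2 UV and 1.25 ± 0.523 in lin-52 UV, and its call was lost under 11. Of the role lists, nhr-8, nhr-14, nhr-45, nhr-48, nhr-49, nhr-64 and nhr-69 were lower in lin-52 UV, by at most 0.28 on the log2 scale (nhr-45 and nhr-48, difference -0.28). The call of nhr-49 (-0.15, adjusted p = 0.0425) was lost under 17 of the alternatives, that of nhr-64 under 6, and those of nhr-14 and nhr-69 under 5 each. By level, 43.6% of the 39 members at 20 FPKM or more were lower and 7.7% higher, against 23.1% and 14.8% of all tested genes at that level.

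The 14 higher genes had means of 0.461 to 30.4 FPKM in N2 UV. They were nhr-1, nhr-6, nhr-15, nhr-21, nhr-62, nhr-73, nhr-74, nhr-100, nhr-155, nhr-158, nhr-216, nhr-245, nhr-260 and nhr-277. nhr-277 (chromosome IV, 2742994 to 2747485) read 6.32, 4.93 and 5.01 FPKM in N2 UV and 9.80, 10.1 and 10.8 in lin-52 UV, a difference of 0.87 ± 0.10 (1.82-fold, adjusted p = 0.000116). nhr-74 stood at 0.483 ± 0.172 FPKM in N2 UV and 1.14 ± 0.353 in lin-52 UV, and nhr-155 at 0.461 ± 0.149 and 1.12 ± 0.133. nhr-21 read 26.4, 30.1 and 28.5 FPKM in N2 UV and 41.7, 36.6 and 42.3 in lin-52 UV. Each of these pairs of groups was free of overlap, as for all 14, which adds no support to the calls that picked them.

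The response to UV itself was compared between the strains as the difference of the UV effects. It was called for 18 members, 5 with a larger value in lin-52 and 13 with a smaller one, 2.56% and 6.67%, against 5.17% and 6.2% of all tested genes. The share with a smaller value was thus near that of all genes, and the share with a larger value was below it. The median difference was -0.13 for the members and -0.00 for all genes. Of the 100 members that rose in both strains 87 rose by less in lin-52, 87.0%, and among all tested genes that rose in both strains 76.7% did. Of the 27 that fell in both 18 fell by less in lin-52, 66.7% against 75% of all genes that fell in both.

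The 13 smaller values belonged to genes that rose in both strains. nhr-180 rose by 1.39 ± 0.08 in N2 and 0.64 ± 0.08 in lin-52, a difference of -0.75 ± 0.12 (adjusted p = 0.00479). nhr-232 rose by 1.57 ± 0.09 and 0.88 ± 0.09 (difference -0.69 ± 0.12, adjusted p = 0.00652), and nhr-231 by 1.98 ± 0.08 and 1.27 ± 0.08 (difference -0.71 ± 0.12, adjusted p = 0.00563). Their mock libraries were similar in both strains for nhr-180 and nhr-232, at 7.74 ± 0.560 and 8.18 ± 0.161 FPKM for the former, and nhr-231 started higher in lin-52. The others were nhr-54, nhr-18, nhr-154, nhr-212, nhr-63, nhr-120, nhr-203, nhr-44, nhr-109 and nhr-56, and 11 of the 13 lie on chromosome V. These 11 are 8.94% of the tested members on V, where 7.74% of all tested genes on V had a smaller value. The call was lost under 13 of the alternatives for nhr-212, 12 for nhr-63 and 11 for nhr-54. For nhr-18 and nhr-154 it was lost under 1 each. In all 13 genes lin-52 UV replicate 2 was the highest library of its group. How often that was so among all genes with a smaller value was not counted.

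The 5 larger values were of several kinds. nhr-277 fell in both strains, by 1.19 ± 0.10 in N2 and 0.31 ± 0.10 in lin-52 (difference 0.88 ± 0.14, adjusted p = 0.00433), and nhr-6 by 1.81 ± 0.07 and 1.12 ± 0.07 (difference 0.69 ± 0.10, adjusted p = 0.00295). nhr-1 and nhr-198 fell in N2 and were not called in lin-52. The differences of nhr-1, nhr-198 and nhr-21 were lost under 9, 4 and 3 of the alternatives. nhr-21 read 29.3, 30.5 and 31.2 FPKM in N2 mock and was not called in N2, and it rose in lin-52 from 26.2, 33.6 and 29.6 FPKM to 41.7, 36.6 and 42.3 (0.43 ± 0.09, adjusted p = 0.000895). With an equal sum per library 5 of the 18 calls were left, those of nhr-180, nhr-231, nhr-232, nhr-6 and nhr-277. The count was 10 without N2 UV replicate 2, 31 without lin-52 UV replicate 2, 11 without lin-52 UV replicate 3 and 9 without lin-52 UV replicate 4. Over all tested genes the main fit called 668 larger and 802 smaller values, and 279 and 177 with an equal sum. Without these libraries, in the same order, they were 358 and 476, 1027 and 1148, 410 and 509, and 352 and 476.

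**Figure D5:**
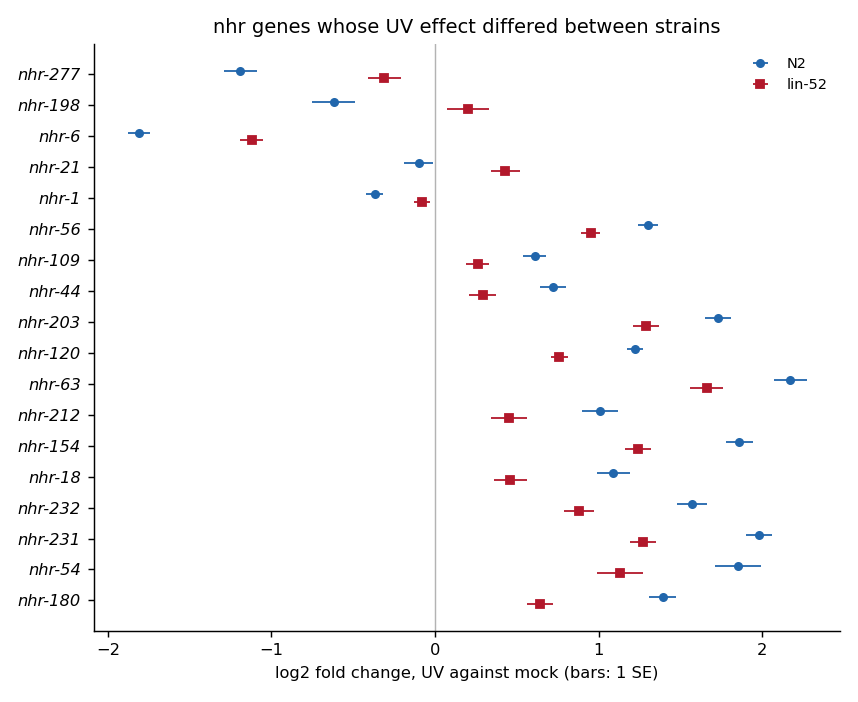
Log2 fold change after UV in N2 (blue circles) and in lin-52 (red squares) of the 18 nhr genes whose UV effect differed between the strains, with bars of 1 SE. In the lower 13 genes the lin-52 value lies below the N2 value, as for nhr-180 at 0.64 and 1.39, and in the upper 5 it lies above, as for nhr-277 at -0.31 and -1.19.

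Members with like profiles were sought for 3 receptors by Pearson's r of log2 levels over the 12 libraries. This is a description in which the difference between UV and mock libraries weighs most. For nhr-8 the closest were nhr-63 (r = 0.997), nhr-213 (0.994) and nhr-56 (0.993). For nhr-85 they were nhr-265 (0.997), nhr-259 (0.997) and nhr-113 (0.991), all on chromosome I like nhr-85 itself. For nhr-49 they were nhr-134 (0.955), nhr-109 (0.953) and nhr-212 (0.944), which rose in N2 and were lower in lin-52 UV than in N2 UV. nhr-134 is an example, at 12.1 ± 0.768 FPKM in N2 mock, 11.7 ± 0.937 in lin-52 mock, 20.1 ± 0.399 in N2 UV and 15.1 ± 1.84 in lin-52 UV.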

How the data were processed

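The authors' deposited table held 1 FPKM value per gene and library, computed by the authors with Cufflinks after alignment with Tophat in the QuickNGS pipeline on the gene models of Ensembl 85. Libraries were stranded and depleted of ribosomal RNA. The authors used DESeq2 for their own tests, which are not used here. Whether counting used the strand, the genome build and the read total of each library were not given in the sources used here.

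Of 46245 gene identifiers 45990 were found by WormBase identifier in WBcel235 (Ensembl 115), which gave names, biotypes and spans. Size factors (0.958 to 1.05) were median ratios over the genes that no library listed at 0. Tested were the protein-coding genes whose mean reached 1 FPKM, on log2(FPKM + 0.5) with limma 3.58.1 in R 4.3.3 (4 group means over 12 libraries, empirical Bayes with an intensity trend, no replicate block), and p-values were adjusted by Benjamini-Hochberg over the 12926 genes of each of 5 contrasts. Fold changes had a median SE of 0.084 on the log2 scale, the differences of UV effects 0.119. The depth relative to N2 mock replicate 1 was read from the steps between low values. The scripts were tested on simulated data. Python 3.11.15 with numpy 2.4.6, pandas 2.3.3 and matplotlib 3.10.9 did the rest.

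The members, role lists and pathway lists were chosen with earlier results of these data known. Named were the tested members of the role lists, up to 8 called increases and 8 decreases per contrast by size, the 10 most abundant members, up to 4 called genes per pathway list and the 3 members most like nhr-8, nhr-49 and nhr-85. Members named beyond this rule, such as nhr-15, nhr-239 and nhr-221, were chosen after their values were seen. Alternatives were FPKM as deposited, quantile normalization or an equal sum per library, a pseudocount of 0.1 or 1, a filter at 5 FPKM or none, no trend, a replicate block, a fit to the compared libraries only, and each library left out.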

Additional observations from a re-analysis of the deposited data

Results flagged for a closer look

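For 18 members the UV effects in the 2 strains differed by limma's test of the difference itself (lin-52 minus N2, log2 scale, adjusted over all tested genes). Smaller in lin-52 were those of nhr-180 (-0.75), nhr-54 (-0.72), nhr-231 (-0.71), nhr-232 (-0.69), nhr-18 (-0.63), nhr-154 (-0.62), nhr-212 (-0.56), nhr-63 (-0.51), nhr-120 (-0.46), nhr-203 (-0.44), nhr-44 (-0.43), nhr-109 (-0.35) and nhr-56 (-0.35). The difference was positive for nhr-1 (0.29), nhr-21 (0.53), nhr-6 (0.69), nhr-198 (0.81) and nhr-277 (0.88). Of these, nhr-6 and nhr-277 fell in both strains and less far in lin-52. nhr-1 and nhr-198 were called lower in N2 alone, and nhr-21 was called higher in lin-52 alone. The calls of nhr-212, nhr-63, nhr-54 and nhr-1 were lost under 13, 12, 11 and 9 of the alternatives. Of the 13 genes with a smaller value 12 were also called lower in lin-52 UV than in N2 UV, and nhr-54 was not. For all 13 genes lin-52 UV replicate 2 was the highest of its group, and without that library 31 differences were called in place of 18. Over all tested genes 1027 larger and 1148 smaller values were called without it, in place of 668 and 802. How often it was the highest among all genes with a smaller value was not counted. nhr-277 had 6.32, 4.93 and 5.01 FPKM in N2 UV and 9.80, 10.1 and 10.8 in lin-52 UV, and nhr-198, a low gene, had 2.03, 1.66 and 2.14 FPKM in N2 mock and 1.22, 1.26 and 1.25 in lin-52 mock.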

How the results depend on the processing

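The counts of members called after UV stayed within 1.5 times those given under every alternative run, from 133 to 144 in N2 and 125 to 138 in lin-52 when single libraries were left out. The strain comparisons depended more on the processing. Between lin-52 mock and N2 mock the 4 calls became 0 with the replicate block and 2 with only the libraries compared, and 0 to 7 with single libraries left out. Between lin-52 UV and N2 UV the 61 calls became 26 with libraries scaled to an equal sum, and 37 to 67 with single libraries left out. The 18 differences of UV effects became 5 with an equal sum, 9 with the replicate block, and 9 to 31 with single libraries left out. Over all tested genes 668 larger and 802 smaller values became 279 and 177 with an equal sum, and 362 and 475 with the block. The cause was not tested. Same-numbered libraries of different groups had correlated deviations between -0.164 and 0.251 over 13 pairs, so the numbers were not taken to pair the samples, and the block gave 44 calls between lin-52 UV and N2 UV, 136 after UV in N2 and 134 in lin-52. Of 123 named pairs of member and comparison 90 kept their call under all alternatives run for them, and 33 lost it under at least 1. With an equal sum the change of nhr-97 in lin-52 turned from -0.09 to 0.01 (adjusted p = 0.838). With 3 libraries per group and a median SE of 0.084, small changes of low members could not be resolved.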
